A study of Caenorhabditis elegans with 16 samples.

Results

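RPB-6 occupancy in the seam cells of *C. elegans* at the L4 larval stage was described from 4 of the 16 samples of the series. They were 2 replicates of *dam:rpb-6* (strain MBA698) and 2 replicates of *dam:NLS-GFP* (strain MBA692), both driven by *srf-3i1*, the first intron of *srf-3a* fused to the minimal promoter of *pes-10*. Both strains carried 1 single-copy insertion in an *unc-119(ed3)* background, with the Dam fusion downstream of an mCherry reading frame and followed by *unc-54* 3′ sequence and *C. briggsae unc-119*. Populations were grown at 20 °C on bacteria without dam and dcm methylation and collected 48 h after seeding, the other part of each population having been taken at L2 after 24 h. DNA came from whole animals, and the cell type rests on where *srf-3i1* was active. A score therefore pools all seam cells, and polymerase in fewer cells and less polymerase per cell cannot be told apart. The other 3 groups of the series entered only the spread used for testing. They were seam cells at L2, from the same strains, and hypodermis at L2 and L4. The hypodermal fusions were driven by *dpy-7syn1*, a modified *dpy-7* promoter, in strains MBA688 (*dam:rpb-6*) and MBA693 (*dam:NLS-GFP*), also in *unc-119(ed3)*.

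In targeted DamID, Dam adds a methyl group to the adenine of GATC sites close to the protein it is fused to, and only methylated DNA is amplified. RPB-6 is a subunit shared by RNA polymerases I, II and III, so a *dam:rpb-6* profile can show genes for messenger RNAs, ribosomal RNAs and transfer RNAs. *dam:NLS-GFP* is not held at genes and reports accessible chromatin. Seam cells are lateral epidermal cells that divide like stem cells through larval life. They secrete part of the cuticle, and at L4 they stop dividing, fuse and contribute to the adult cuticle with its alae.

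Each deposited score was log2(*dam:rpb-6/dam:NLS-GFP*) of a fragment between neighbouring GATC sites, and 269057 fragments covered the WBcel235 assembly. A score of 1 stands for a ratio of 2 after normalisation, and 0 for equal signal. The deposited profile of replicate 1 over control 1 was not used. Its fragment scores followed the ratio of the 2 controls, computed from the replicate 2 profiles, with a Pearson r of 0.996, and ran against replicate 1 over control 2 with r = -0.35. Replicate 1 over control 2 and replicate 2 over control 1 share no library and are called replicate 1 and replicate 2 here. Scores carry no read numbers, which leaves the depth of each fragment unknown and the precision of a single score open to the replicate comparison only. A score of exactly 0 was listed for 26.2% of the fragments in replicate 1, 44.6% in replicate 2 and 20.7% in both.

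Fragments differed widely. A score of at least 1 in both replicates was found for 12558 fragments, 4.67% of all, and a score of at most -1 in both for 7966 fragments, 2.96%. Of the 199075 fragments overlapping protein-coding genes, 5.63% were at or above 1 in both, and of the 69982 fragments outside these genes 1.93% were. The order turned round for low scores, at 2.68% inside and 3.77% outside. Across fragments the replicates had r = 0.531, which describes fragments of the same 4 libraries that are not independent of each other. The sequences below show what such a fragment is, a high fragment within the coding sequence of the collagen gene *dpy-13* and a low one of *B0304.2*, with the GATC sites in capitals.
dpy-13 fragment: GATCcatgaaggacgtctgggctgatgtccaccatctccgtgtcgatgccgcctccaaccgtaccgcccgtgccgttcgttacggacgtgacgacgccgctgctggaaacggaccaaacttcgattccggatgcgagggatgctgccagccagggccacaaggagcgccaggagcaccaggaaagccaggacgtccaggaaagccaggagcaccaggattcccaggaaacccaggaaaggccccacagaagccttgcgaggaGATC
B0304.2 fragment: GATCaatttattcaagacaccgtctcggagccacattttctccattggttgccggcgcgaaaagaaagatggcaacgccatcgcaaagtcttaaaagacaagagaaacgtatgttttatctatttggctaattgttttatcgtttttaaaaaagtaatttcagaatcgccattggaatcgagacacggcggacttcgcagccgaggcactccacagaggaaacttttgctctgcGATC
The *dpy-13* stretch lies on the plus strand at chrIV:4235852-4236117, is 266 bases long with both sites and scored 9.22 in replicate 1 and 8.84 in replicate 2. It is all coding sequence. The letters ccagga, in which CCA is a codon for proline and GGA one for glycine, occur 8 times in it. The *B0304.2* stretch lies on the plus strand at chrII:4524196-4524433, is 238 bases long, of which 76% is coding, and scored -4.25 and -4.87.

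Gene occupancy was the mean score over a gene, weighted by the overlapped length. It was available for 19983 of 19985 protein-coding genes. The median gene was at -0.01, 1% of the genes had a mean of both replicates above 2.24 and 1% one below -1.13, and the replicates differed by 0.17 in the median gene. The SD of the replicate difference over all genes was 0.468. Occupancy was at or above 1 in both replicates for 756 genes, called high here, which is 3.78% of the genes. It was at or below -1 in both for 135 genes, called low, which is 0.676%. Both replicates were above 0 for 5110 genes and below 0 for 6929, and they had opposite signs for 4743. The high genes nearest to the threshold were *F56A8.9* (1.91 and 1.00) and *F09G2.2* (1.71 and 1.00), and *pat-12* (1.24 and 0.999) and *wdr-20* (1.58 and 0.998) lay just outside it.

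limma tested the mean against 0 with the spread estimated over the 4 groups of cell type and stage. At a Benjamini-Hochberg adjusted p under 0.05 it called 506 genes above 0, 2.53% of the genes, and 150 genes below 0, 0.751%. Of the high genes 338 were called above 0, and of the low genes 44 were called below 0. These calls depend on the spread borrowed from the other groups. With the replicate number as a block in the limma fit, 0 genes passed, with a smallest adjusted p of 0.0548 and 3851 genes at an unadjusted p under 0.05. With the 2 seam cell L4 profiles alone limma called 0 genes, with 3322 at an unadjusted p under 0.05. With replicate 2 alone it called 2 genes above 0 and with replicate 1 alone 3. An exact sign-flip test on 2 values cannot go below p = 0.5. Values are therefore given for both replicates, and "called" means the limma call without the block.

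**Figure D1:**
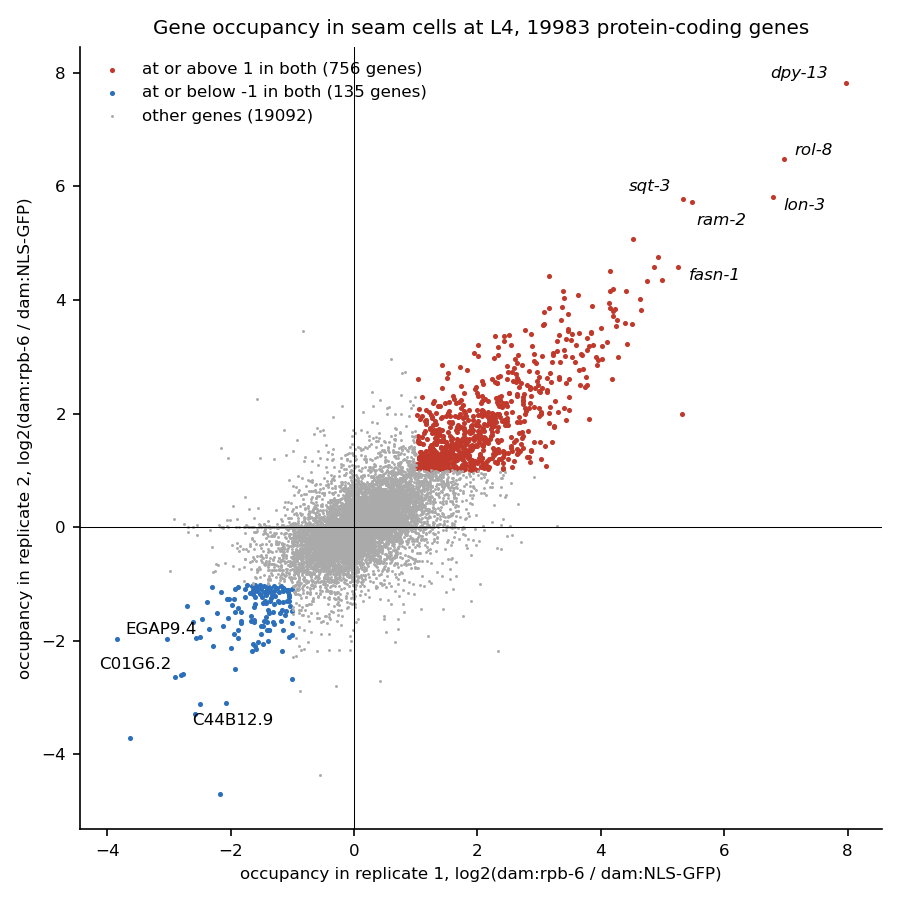
Occupancy of 19983 protein-coding genes in replicate 1 (x axis) and replicate 2 (y axis), in log2(*dam:rpb-6/dam:NLS-GFP*), with genes at or above 1 in both in red and at or below -1 in both in blue. The 756 high genes reach 7.97 and 7.83 for *dpy-13*, and the 135 low genes lie closer to 0.

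The top of the profile was held by cuticle collagens, the structural proteins of the worm's exoskeleton. *dpy-13*, whose loss shortens the body, had 7.97 in replicate 1 and 7.83 in replicate 2 (mean 7.90 ± 0.10, SD, n = 2; limma SE 0.38, adjusted p = 0.012). *rol-8* had 6.97 and 6.48, and *lon-3*, a collagen that limits body length, had 6.79 and 5.80. *sqt-3* had 5.33 and 5.78. All 4 were called above 0. These 4 collagens stood above 5 in both replicates, and the only other gene of at least 5 fragments there was *ram-2*, with 5.47 and 5.72.

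Collagens also filled much of the next ranks. Among the 15 highest genes with at least 5 fragments were *col-48* (4.51 and 5.07), *col-42* (4.99 and 4.36), *dpy-8* (4.15 and 4.50), *col-39* (4.65 and 3.83), *col-144* (4.202 and 4.199) and *col-17* (4.51 and 3.58). limma called these except *col-42* (adjusted p = 0.065) and *dpy-8* (adjusted p = 0.052). The 15 also held *fasn-1*, *osm-11*, *ahcy-1* and *pqn-32*, and *ram-2* named above. *fasn-1*, the fatty acid synthase, had 5.26 and 4.58 over its 60 fragments, and *osm-11*, a secreted Notch co-ligand, had 4.86 and 4.58. *ahcy-1*, which breaks down S-adenosylhomocysteine, had 4.63 and 4.01. *pqn-32*, which encodes a glutamine- and asparagine-rich protein, had 4.15 and 4.16. These 4 were called above 0.

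The lowest genes lay closer to 0 than the highest, and the 10 lowest with at least 5 fragments included several that carry only a sequence name. *EGAP9.4* had -3.84 and -1.96 and was not called by limma (adjusted p = 0.11). *C44B12.9* had -2.50 and -3.11, and its neighbour *C44B12.3* had -1.66 and -2.18. *C01G6.2* had -2.78 and -2.58, *gsto-2*, a glutathione transferase, -2.29 and -2.10, and *pqn-31* -2.61 and -1.66. *B0304.2* had -2.0 and -2.13. The chemoreceptor gene *str-94* had -2.22 and -1.51 and the F-box gene *fbxb-88* -1.89 and -1.82. *cpx-1*, which encodes complexin of synapses, had -2.39 and -1.31. limma called *C44B12.9*, *C01G6.2*, *gsto-2*, *pqn-31*, *str-94* and *fbxb-88* below 0, and no call was made for *C44B12.3*, *B0304.2* and *cpx-1* (adjusted p = 0.094, 0.057 and 0.19).

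Genes chosen in 1 replicate were read in the other. The 200 genes highest in replicate 1 had a median of 2.62 in replicate 2, where 198 were above 0 and 193 at or above 1. The 200 highest in replicate 2 had a median of 2.94 in replicate 1, with 198 above 0 and 190 at or above 1. The lowest genes carried over less. The 200 lowest in replicate 1 had a median of -0.66 in replicate 2, where 162 were below 0 and 78 at or below -1. The 200 lowest in replicate 2 had a median of -0.86 in replicate 1, with 174 below 0 and 86 at or below -1. Among genes with at least 5 fragments the replicates disagreed most at *F26F4.2* (2.33 and -2.18), followed by *F49E8.6* (-2.05 and 1.22) and *lmp-1* (1.89 and -1.31).

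Along genes, high scores began near the start and ran into the gene body. Averaged over the 756 high genes, the score was 1.33 and 1.06 at the start, 2.20 and 1.92 at 500 bp into the gene, and 0.86 and 0.61 at 500 bp upstream. Over all genes the same positions had -0.02 and -0.03, 0.06 and 0.04, and 0.00 and -0.02. Low genes were lowest inside the gene too, with -1.34 and -1.26 at the start and -1.55 and -1.55 at 500 bp. That the high and low curves separate follows from how the genes were chosen, and only their shape is a description.

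**Figure D2:**
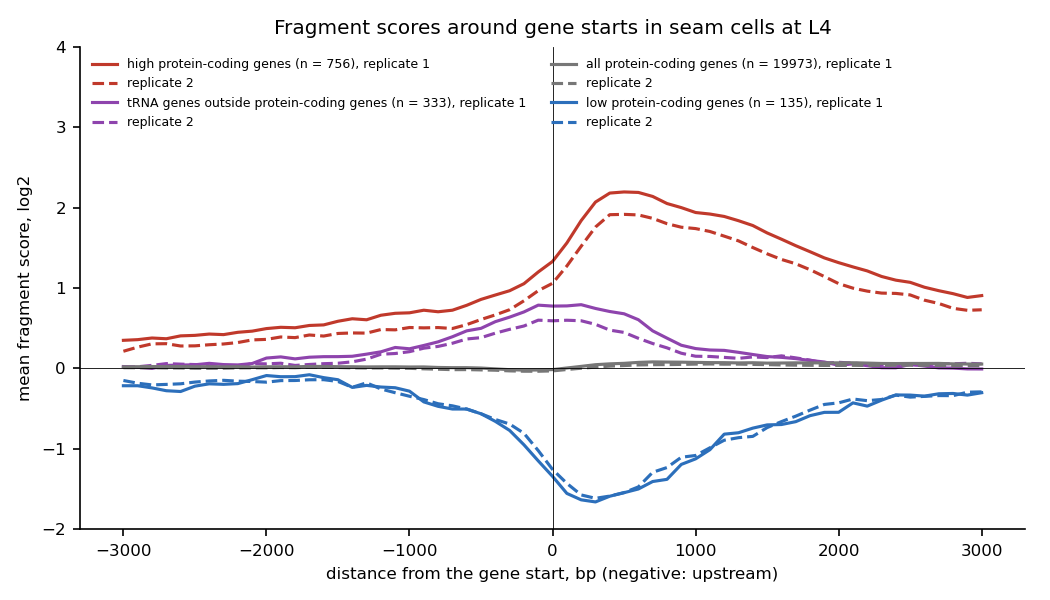
Mean fragment score (y axis, log2) by distance from the gene start (x axis, bp) for high, low and all protein-coding genes and for tRNA genes outside protein-coding genes, with replicate 1 as solid and replicate 2 as dashed lines. High genes stand at 2.20 and 1.92 at 500 bp downstream, and tRNA genes at 0.78 and 0.59 at their start.

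At *dpy-13* (chrIV:4235614-4236710, plus strand) the fragments from 134 to 1275 bp after the start all scored between 7.38 and 9.22. The signal ended 1744 bp after the start, where the next fragment had 0.14 and 0.00. Upstream, fragments between -945 and -294 bp scored from 3.47 to 6.36. They lie within the neighbour *zipt-2.2*, a predicted zinc transporter gene on the other strand, whose fragments between -1780 and -4432 bp were all below 0.41. The occupancy of *zipt-2.2*, 1.31 and 1.11, made it a high gene. The fragments next to *dpy-13* enter that value, and how much of it they make up was not tested.

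High genes also lay side by side. 19 stretches held 3 or 4 neighbouring high genes, 60 genes in all. Some of these genes overlap and share fragments, such as *dpy-10* and *T14B4.19*, so the count of genes is not a count of separate signals. The seam cell genes *grd-13* (3.93 and 2.99), *grd-3* (3.81 and 3.19) and *grd-10* (3.6 and 3.21), which encode secreted hedgehog-related proteins, formed 1 of them on chromosome IV. The score was 0.36 and 0.04 on the fragment from 2084 to 2179 bp after the start of *grd-13*, which covers the end of *grd-3*. It was 4.91 and 4.36 from 2296 to 2609 bp, between *grd-3* and *grd-10*, so high scores were not limited to the genes. The neighbours *srz-32* (0.30 and -0.34) and *F09D12.2* (0.09 and 0.43) were not high. The lipocalin genes *lpr-3* (4.13 and 3.94), *lpr-6* (3.21 and 2.91), *lpr-5* (2.08 and 2.04) and *lpr-4* (3.48 and 2.62) formed another on chromosome X, and all 4 were called above 0. Further stretches were *col-144*, *col-145*, *col-10* and *B0222.11* on V, and *dpy-10*, *T14B4.19* and *dpy-2* on II. The histone genes *his-4*, *his-3* and *his-2* on V were a stretch as well. Histone genes have near-identical copies between which reads could be split, so their values are uncertain. The start of another high gene lay within 1 kb for 15.2% of the high genes, for 0 of the 135 low genes and for 2.50% of all genes.

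**Figure D3:**
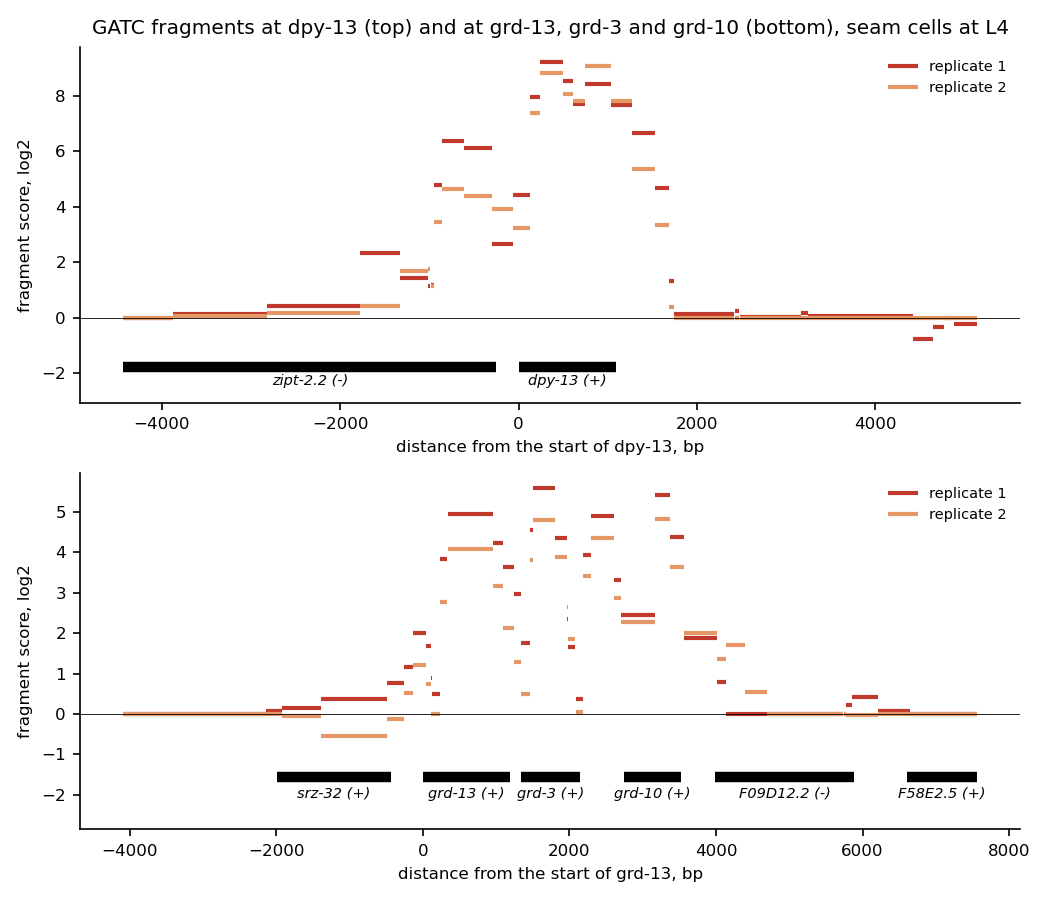
Score of each GATC fragment (y axis, log2) by distance from the start of *dpy-13* (top) or *grd-13* (bottom) in bp, with replicate 1 in red and replicate 2 in orange, and genes as black bars with their strand. Scores reach 9.22 and 9.08 within *dpy-13* and 5.59 and 4.80 within *grd-3*.

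Marker genes of cell types were read next. The paper names the seam cell and hypodermis markers and shows many of them as occupied in these same data. Their values are therefore a description and no independent check of the label. All 10 seam cell markers were above 0 in both replicates, with a median of 1.24, and 5 were high. Beside the 3 *grd* genes these were *elt-1* (2.40 and 2.12), the GATA factor of epidermal fate, and *elt-6* (1.93 and 1.09). *egl-18* (1.11 and 0.82) and the fusogen gene *aff-1* (0.91 and 0.94) were called above 0 as well. *srf-3*, the source of the promoter, had 1.27 and 0.44, *nhr-73* 0.93 and 0.56, and *ceh-16* 0.41 and 0.26, and these 3 were not called. Of 5 hypodermis markers, *dpy-7*, a collagen gene, had 4.15 and 3.86 and was called. *elt-3* (1.52 and 0.72), *col-19* (1.62 and 0.56), *osm-7* (0.98 and -0.07) and *wrt-8* (-0.13 and 0.55) were not. Hypodermis markers thus also had signal under *srf-3i1*, with a median of 1.09, and their part in the result was not tested.

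By their medians, markers of other tissues were near or below 0. No marker of body wall muscle (12 genes), pharynx (5), neurons (16), intestine (16) or germline (14) was high. With 3.78% of all genes high, lists of 5 to 16 genes cannot show a lack. Their medians were -0.38, 0.01, -0.07, -0.09 and -0.21, against -0.01 over all genes. Muscle marker means ran between -0.73 and 0.20, and *myo-3*, a body wall muscle myosin, had -0.34 and -0.30. *unc-22*, the twitchin gene, had -0.62 and -0.73 over 208 fragments. Intestinal marker means ran between -0.62 and 0.13. Germline marker means ran between -1.16 and 0.62, with 11 of 14 below 0 in both replicates and 2 above. *cgh-1* was the highest with 0.73 and 0.51, and *oma-1* had -0.74 and -1.57. *glh-1*, a P granule helicase, was called below 0 by limma (-0.58 and -0.38, adjusted p = 0.034). The neuronal marker with the highest value was *snb-1*, for synaptobrevin, with 0.90 and 2.21, uncalled, and *cat-1* had 0.74 and 0.65. Genes with sequence or a close relative in the transgenes were not high, and neither was *srf-3*, given above. *rpb-6* had -0.03 and 0.00, *unc-54* 0.37 and -0.10, *unc-119* -0.13 and -0.10, and *pes-10* 0.00 and 0.17.

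Gene groups were described by counts and medians, since their lists were drawn up with results of these data known. Of 176 cuticle collagens, 73 were high and 2 low, with a median of 0.86. In the same list 51 were called above 0 and none below. The spread was wide, with 22 collagens below 0 in both replicates. *col-118* was the lowest with -1.64 and -2.05, and *col-83* had -1.01 and -1.68. Some collagen genes are similar enough for reads to be split between copies. Among 12 collagen processing enzymes 5 were high, among them *pdi-2* (3.86 and 3.89), a disulphide isomerase that is part of prolyl hydroxylase, *dpy-11* (2.59 and 2.80), a thioredoxin-like protein, and *pdi-1* (2.81 and 2.51). The prolyl hydroxylase gene *phy-3* was the lowest, with -0.93 and -1.07, and was called below 0.

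**Figure D4:**
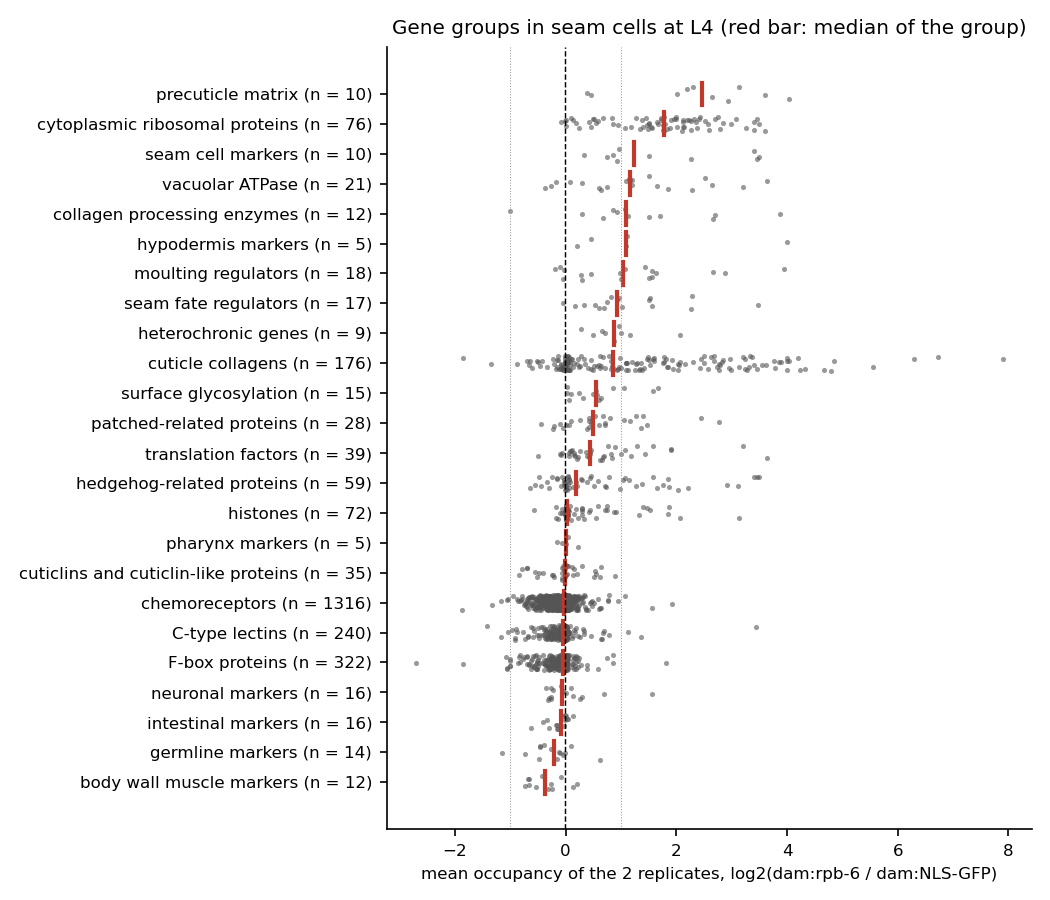
Mean occupancy of the 2 replicates (x axis, log2) of the members of 24 gene groups (rows, points), with the median of each group as a red bar, the median of all genes as a dashed line and 1 and -1 as dotted lines. Medians run from 2.47 in the precuticle matrix to -0.38 in body wall muscle markers, and collagens spread from -1.85 to 7.90.

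The precuticle matrix, the apical matrix laid down before the cuticle, had the highest median of the groups, 2.47. All 10 members were above 0 in both replicates and 8 were high. *lpr-3* had 4.13 and 3.94, *noah-1*, a zona pellucida domain protein, 4.01 and 3.19, and *sym-1*, a leucine-rich repeat protein, 3.22 and 3.03. *dex-1* was the lowest with 0.57 and 0.20. Cuticlins, which are also zona pellucida domain proteins, differed from the precuticle matrix, with 0 of 35 high and a median of -0.01. Over all genes 3.78% were high and the median was -0.01, so a list of 35 cannot show a lack. The highest was *cut-3* with 0.46 and 1.34, and *cutl-10* the lowest with -0.69 and -1.004.

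Of 18 moulting regulators 8 were high, with a median of 1.03. *mlt-11*, a protease inhibitor, had 4.2 and 3.71, *nhr-23*, the nuclear receptor that drives moulting, 3.19 and 2.56, and *acn-1* 2.63 and 2.70. The astacin protease gene *nas-36* was the lowest at -0.14 and -0.25. Among 17 seam fate regulators 6 were high and 16 above 0 in both replicates. *lin-26*, needed for epithelial fate, had 4.01 and 2.96, *grh-1*, the worm Grainyhead, 2.29 and 2.27, and *elt-1* 2.40 and 2.12. *rnt-1*, a Runx factor of seam cell division, was the lowest with -0.18 and 0.07. All 9 heterochronic genes, which time larval development, were above 0 in both. *mab-10* (2.23 and 1.91) and *lin-29* (1.27 and 1.06), which act together at the larval to adult switch, were the 2 high members, followed by *lin-42* (1.04 and 0.95). *daf-12* was the lowest with 0.35 and 0.21. Both fusogens, *eff-1* (1.35 and 0.89) and *aff-1*, were above 0.

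Among 59 hedgehog-related proteins 14 were high and 12 were below 0 in both replicates, with a median of 0.19. The 3 highest were the clustered *grd-3*, *grd-13* and *grd-10*, and *grl-13* was the lowest with -0.80 and -0.48. Of 28 patched-related proteins 6 were high. *ptr-4* had 2.97 and 2.57, *ptc-3*, a patched homologue, 2.52 and 2.36, *ptr-15* 2.15 and 0.80, and *ptr-5* the lowest -0.41 and -0.47. Among 9 hemidesmosome and intermediate filament genes, which anchor epidermis to cuticle and muscle, *mup-4* (2.73 and 1.61), *let-805* (1.78 and 1.51) and *mua-3* (1.78 and 1.05) were high, and *ifa-3* was the lowest with -0.20 and -0.30. Junction and polarity genes had 1 high member of 17 (5.88%, near the 3.78% of all genes), *dlg-1* (1.94 and 1.53). Next were *sma-1* (1.24 and 0.75) and *par-3* (0.82 and 0.83), and *crb-1* was the lowest with -0.29 and -0.46. Surface glycosylation genes had 2 of 15, *bus-4* (1.82 and 1.51) and *bus-5* (1.59 and 1.57), with *bus-2* next at 1.13 and 0.99 and *sqv-6* lowest at 0.06 and -0.01.

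Groups of the general cell machinery differed in their share of high members. Of 76 cytoplasmic ribosomal protein genes 50 were high, 0 were low and the median was 1.78. limma called 14 of them above 0. *rpl-36* had 3.46 and 3.75, *rpl-1* 3.35 and 3.65, and *rps-1* 3.52 and 3.41, while *rpl-42* had -0.42 and 0.26. Of 39 translation factors 6 were high, led by the elongation factor genes *eef-1A.1* (3.84 and 3.44) and *eef-1A.2* (3.76 and 2.65) and by *inf-1* (1.99 and 1.83), with *ife-4* lowest at -0.47 and -0.52. The 2 elongation factor genes are close copies of each other, so reads may be split between them. Of 35 genes of the respiratory chain and ATP synthase 4 were high, with *atp-2* (2.32 and 1.53), *cyc-2.1* (2.02 and 1.69) and *atp-1* (1.37 and 1.61) at the top and *nuo-2* (-0.28 and -0.34) at the bottom. RNA polymerase II subunits had 0 of 12 high, and with 3.78% of all genes high a list of 12 cannot show a lack.

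Of 21 subunits of the vacuolar ATPase, a proton pump, 10 were high, with a median of 1.17. *vha-1* had 4.27 and 2.99, *vha-9* 3.64 and 2.77, and *vha-12* 2.55 and 2.74. *vha-5*, a subunit known from the epidermis, had 2.36 and 2.67, and *vha-6*, the subunit of the intestine, was the lowest with -0.44 and -0.32. In fatty acid synthesis 2 of 20 were high, *fasn-1* and the desaturase gene *fat-6* (1.26 and 1.95), followed by *pod-2*, for acetyl-CoA carboxylase (1.03 and 0.78), and *fat-7* was the lowest with -0.20 and 0.00. *fat-6* and *fat-7* are close copies. Of 6 genes of phenylalanine and tyrosine breakdown, *tatn-1*, the tyrosine aminotransferase (2.47 and 2.14), and *fah-1* (1.57 and 1.41) were high, with *hpd-1* at 0.79 and 1.43 and *gst-42* lowest at -0.73 and -1.35. Of 22 epidermal antimicrobial peptide genes 1 was high (4.55%, near the 3.78% of all genes), *nlp-33* (4.74 and 4.33). *nlp-34* (1.59 and 0.87) and *cnc-8* (1.55 and 0.47) came next, and *cnc-9* (-1.20 and -1.52) was low.

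Cell cycle and DNA replication genes had 1 high member of 24 (4.17%, near the 3.78% of all genes), *cki-1*, a CDK inhibitor, with 3.24 and 1.77. *dpl-1* (0.85 and 0.89) and *cye-1* (0.71 and 1.00) followed, and *mcm-5* was the lowest with -0.38 and -0.51. Of 72 histone genes 8 were high, led by the linker histone gene *his-24* (3.78 and 2.50), *his-3* (2.73 and 1.39) and *his-2* (1.85 and 1.88), and *his-37* was the lowest with -0.30 and -0.84.

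The large families of sensory and environmental genes had medians between -0.07 and 0.01, against -0.01 over all genes. Of 1316 chemoreceptor genes 2 were high (0.152%) and 2 low, *srxa-8* (1.79 and 2.05) and *srv-16* (2.06 and 1.05) being the high ones, with *srh-71* next at 0.95 and 1.20. Both replicates were below 0 for 529 of them and above 0 for 86, against 6929 and 5110 of all 19983 genes. Over all genes 3.78% were high and 0.676% low. F-box genes had 1 high member of 322, *fbxb-14* (2.299 and 1.31), then *fbxa-167* (0.67 and 1.05) and *fbxa-94* (1.00 and 0.72), and *fbxb-76* was the lowest with -2.81 and -2.59. Of 240 C-type lectins 2 were high, *clec-1* (3.77 and 3.12) and *clec-225* (1.41 and 1.298), followed by *clec-180* (1.31 and 0.94), and *clec-103* was the lowest with -1.69 and -1.17. Of 269 nuclear hormone receptors 14 were high (5.20%, near the 3.78% of all genes), led by *nhr-23*, *nhr-265* (2.29 and 1.92) and *nhr-102* (1.85 and 2.06), and *nhr-117* was low with -1.51 and -1.74. Cytochrome P450 (74 genes), UDP-glucuronosyl transferase (67) and MATH and BTB genes (90) had 0 high members and 0 low ones. The shares over all genes were 3.78% and 0.676%. The lists together held 3242 genes, with 229 of the high genes and 12 of the low ones, so that 527 high genes were in none of the 40 lists.

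The high and low genes differed from all genes in size and annotation. Low genes had a median length of 1054 bp, high genes 1868 bp and all genes 2026 bp. Of genes under 1 kb, 1.80% were low and 4.92% high, and of genes of 5 kb and over 0.0309% were low and 3.34% high. Short genes hold fewer fragments, and 41.5% of the low genes had fewer than 5 fragments, against 27.3% of all genes. A locus name was carried by 72.2% of the high genes, 37.0% of the low genes and 54.5% of all genes. By chromosome, the share of high genes ran from 2.62% on V to 4.89% on III, with 3.77% on X. The 10 genes of the mitochondrial genome, which has a polymerase without RPB-6, had a median of -0.20, and none was high.

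Short motifs were counted on both strands of the 250 bp before each gene start. A motif bound by GATA factors, with the letters TGATAA, was found in 26.9% of the high genes, 21.5% of the low genes and 26.8% of all genes. The letters AGATAA were found in 21.3%, 17.8% and 18.7%, and AGATAG in 11.1%, 9.63% and 7.85%, of the high, low and all genes. The nuclear receptor motif AGGTCA was found in 10.6%, 9.63% and 7.11%. A further one, with the letters GATAAG, shares 5 letters with the first and with the second and was found in 16.3%, 11.9% and 14.7%. The letters of the Dam site itself, GATC, were in 41.9% of the high genes' windows, 57.8% of the low genes' and 38.4% of all. These shares are descriptions, and a match is not a site.

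Noncoding genes were fitted in a table of their own of 26926 genes. Of these 820 were high (3.05%) and 574 low (2.13%), and limma called 108 above 0 (0.401%) and 31 below 0 (0.115%). With the replicate number as a block limma called 2 above 0 and 0 below, with 3129 genes at an unadjusted p under 0.05. Most noncoding genes lie within 1 fragment and share it with their neighbours, so that counts of genes are not counts of independent values.

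Transfer RNA genes, which RNA polymerase III transcribes, stood out among the biotypes. Of 631 tRNA genes 153 were high, 24.2%, and 2 were low, with a median of 0.15. The high ones lay on 215 fragments. limma called 27 above 0 and 0 below. Overlap with a high protein-coding gene was found for 29 of the 153, and among the 333 tRNA genes that overlap no protein-coding gene 61 were high, 18.3%. Outside protein-coding genes, 16.6% of the 860 fragments within 1 kb of a tRNA gene were at or above 1 in both replicates, against 1.74% of the 69122 others. Around tRNA genes outside protein-coding genes the mean score was 0.78 and 0.59 at the gene start, 0.24 and 0.21 at 1000 bp upstream and 0.25 and 0.15 at 1000 bp downstream. The 19 mitochondrial tRNA genes had a median of -0.20 and 0 of them were high. The tRNA-Thr gene *Y39A1A.t1*, which is among the highest, is printed 5′ to 3′ from WBcel235, since its own sequence holds the internal promoter. The letters GTTCNA of its downstream part, the B box, are in capitals.
Y39A1A.t1: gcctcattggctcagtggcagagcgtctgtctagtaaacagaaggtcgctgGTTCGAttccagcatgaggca
*ZK154.t5*, for asparagine (chrX:7773965-7774037), had 7.28 and 6.81, the highest occupancy of a tRNA gene. *F12D9.t6*, for cysteine (chrX:8638620-8638691), had 5.66 and 6.43, *Y39A1A.t1*, for threonine (chrIII:10624742-10624813), 5.40 and 6.33, and *F52H2.t1*, for aspartate (chrX:2553565-2553636), 5.76 and 5.96. *T04D3.t1*, for glycine, had 5.78 and 8.001. GTTCNA on the gene's strand was found in 92.8% of the high tRNA genes and 93.7% of all, so these letters are shared by both and were not particular to the high ones.

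High tRNA genes were unevenly spread over the amino acids. Of 13 tRNA-Cys genes 11 were high, with a median of 4.39, and all 13 were above 0 in both replicates. They lie on 3 chromosomes, with 7 of the 13 on X, and 12 of them share 1 sequence, that of *F12D9.t6*, so that reads within the gene could come from any copy, while the flanks of each differ. Of tRNA-Trp genes 8 of 12 were high and of tRNA-Phe genes 9 of 14, with medians of 2.73 and 1.66. At the other end were tRNA-Ser with 4 of 39 and tRNA-His with 2 of 20. tRNA-Asn genes, with 7 of 20 high, had a median of 0.07 in spite of *ZK154.t5*. The 1 tRNA-Sec gene had a mean of -0.41.

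**Figure D5:**
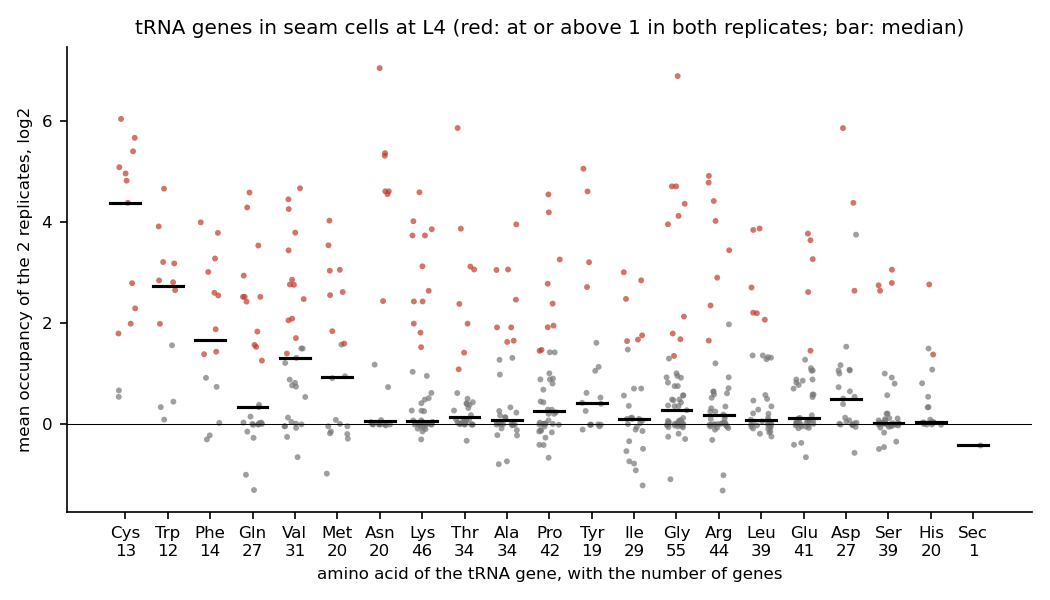
Mean occupancy of the 2 replicates (y axis, log2) of each tRNA gene (points), by amino acid with the number of genes (x axis), in red where both replicates were at or above 1, and with the median as a bar. tRNA-Cys has 11 of 13 genes in red and a median of 4.39, and tRNA-His 2 of 20.

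Ribosomal RNA genes of the repeat on chromosome I, transcribed by RNA polymerase I, were high as well. *rrn-2.1*, for 5.8S rRNA, had 8.11 and 8.08, the highest noncoding value, *rrn-3.1*, for 26S rRNA, 6.94 and 6.71, and *rrn-1.1*, for 18S rRNA, 1.60 and 1.18. The repeat exists in many near-identical copies of which the assembly holds few, so these values are uncertain. The 5S rRNA genes on chromosome V are repeats too, with 2.45 and 1.21 at the highest. Of 346 snoRNA genes 69 were high, 19.9%, and 33 of these overlap a high protein-coding gene, in whose introns many snoRNAs reside. The highest were *Y75B12B.12* (2.91 and 5.31), *Y24D9A.10* (4.18 and 3.87) and *M106.6* (4.30 and 3.07). Of 129 snRNA genes 5 were high (3.88%, near the 3.05% of all noncoding genes), led by *T08G5.11* (2.08 and 4.95), *T14B4.10* (2.73 and 2.82) and *F40G12.13* (2.60 and 2.13).

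The remaining noncoding classes differed in their share of high genes, which was 3.05% over all noncoding genes. Of 194 lincRNA genes 3 were high (1.55%) and 3 low, the high ones being *linc-80* (4.33 and 3.66), which lies beside *fasn-1*, *linc-1* (3.92 and 3.98) and *linc-2* (1.07 and 1.61). piRNA genes had 0.859% high (132 of 15363) and 0.807% low members, the highest being *21ur-1763* and *21ur-7637* (4.36 and 5.10 on 1 shared fragment) and *21ur-1346* (6.28 and 2.22). Of 2128 pseudogenes 16 were high (0.752%) and 9 low, led by *WBGene00023209* (5.16 and 4.36), *WBGene00023300* (3.29 and 3.68) and *WBGene00022219* (2.60 and 2.26), and of 100 antisense RNA genes 4 were high and 4 low, led by *anr-5* (3.95 and 1.33), *F53F1.14* (2.31 and 1.06) and *anr-2* (1.33 and 1.31). Without strand, antisense genes cannot be told apart from the gene they overlap. The class of other noncoding RNAs had 410 high of 7752 (5.29%) and 413 low (5.33%), so that both tails were equally filled. The high ones were led by *Y65B4BL.12* (5.85 and 6.13), *F12D9.13* (5.60 and 6.36), which overlaps *F12D9.t6*, and *Y39A1A.29* (5.40 and 6.33), which overlaps *Y39A1A.t1*. Of these high members 85 overlap a high tRNA gene and 109 a high protein-coding gene.

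MicroRNA genes were read with 500 bp on each side, and 24 of 261 were high, 9.20%, with 4 low. Of the high ones 2 overlap a high protein-coding gene by their annotated span. Overlap of the windows with the added 500 bp was not counted. *mir-58a* (*mir-58.1* in RefSeq) had 4.83 and 3.18, *mir-48* 4.32 and 3.31, *mir-79* 2.52 and 3.03, *mir-46* 3.33 and 2.16 and *mir-241* 2.86 and 2.52. limma called *mir-48* and *mir-79* (adjusted p = 0.036 for both). *lin-4*, the founding heterochronic microRNA, had 1.96 and -1.05, so its replicates disagreed, and *mir-253* was the lowest with -1.53 and -3.37. Several high members share a seed, the bases 2 to 8 that pair with targets. The mature arms below were read from WBcel235 at the RefSeq coordinates, with the seed in capitals. The let-7 family, which times the passage from L2 to adult, comes first.
mir-48: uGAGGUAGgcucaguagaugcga
mir-241: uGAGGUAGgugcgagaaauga
let-7: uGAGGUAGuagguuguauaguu
mir-84: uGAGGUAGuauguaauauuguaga
mir-58.1: uGAGAUCGuucaguacggcaau
mir-81: uGAGAUCAucgugaaagcuagu
mir-82: uGAGAUCAucgugaaagccagu
mir-44: uGACUAGAgacacauucagcu
mir-45: uGACUAGAgacacauucagcu
mir-61: uGACUAGAaccguuacucauc
Of the 4 with the seed GAGGUAG, *mir-48* and *mir-241*, which are neighbours on chromosome V, and *let-7* (1.47 and 1.68) were high, and *mir-84* (0.22 and 0.46) was not. *mir-81* (2.28 and 2.73) and *mir-82* (2.79 and 1.87) share the seed GAGAUCA and differ from *mir-58.1* in its last base. *mir-44* (2.21 and 1.87) and *mir-45* (3.02 and 2.25), whose printed arms are identical but lie apart on chromosome II, share GACUAGA with *mir-61* (1.74 and 1.92). *mir-44* stands in a cluster with *mir-42* (2.51 and 2.28) and *mir-43* (2.37 and 2.02), and their windows overlap, so that the 3 values rest partly on the same fragments.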

How the data were processed

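The authors grew 2 replicates of each strain at each stage, prepared methylated DNA from whole animals and sequenced it single-end. Per the submitters' processing notes, Bowtie2 2.3.4 and SAMtools 1.9 were used with WBcel235, and damidseq_pipeline made the files. The deposited values are log2 ratios of *dam:rpb-6* over *dam:NLS-GFP* for each fragment between GATC sites, as the authors' pipeline normalised them, and carry no read counts. Whether strand was used is not given in the sources used here. Averaged profiles and gene tables with the authors' own test results were not used.

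The profile of replicate 1 over control 1 did not enter the seam cell L4 means, since it followed the ratio of the controls. Gene occupancy was the mean score of overlapping fragments weighted by overlapped length, with 500 bp added on each side of microRNA genes. High and low mean both replicates at or above 1, or at or below -1. The means were also tested against 0 with limma 3.58.1 (R 4.3.3) over 8 profiles in 4 groups, with Benjamini-Hochberg adjustment at 0.05 and a variance trend on the number of fragments. The noncoding table was fitted without this trend, contrary to the plan, because most of its genes hold 1 fragment and the trend could not be fitted. P-values measure only the spread between these samples, and the fit was tested on simulated data. The simulation drew each gene and profile independently, so it held no shared fragments or paired populations. Tables were made with Python 3.11.15 and figures with matplotlib 3.10.9.

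The paper's methods say that each replicate's population was divided between L2 and L4. If equal replicate numbers stand for 1 population, which the labels do not state, this pairs the *dam:rpb-6* replicate numbers of a strain. The seam cell profiles set replicates 1 and 2 over controls 2 and 1 at L4 but over controls 1 and 2 at L2, so that the same number pairs the *dam:rpb-6* populations and crosses the controls. The replicate differences of the stages had a correlation of -0.12 over genes in seam cells and 0.23 in the hypodermis. The fit with the replicate number as a block is given beside the calls. Named genes were the 15 highest and 10 lowest with at least 5 fragments and both replicates on 1 side of 0. To these came the 3 highest and the lowest of each list described and the 3 highest of each noncoding biotype. The cell type markers and the genes with sequence or a relative in the transgenes were named too. Beyond these, *myo-3*, *unc-22* and the neighbours of high genes were chosen after their values were seen, as were *vha-5*, *fat-7*, *let-7*, *mir-84* and other members named beside them. The comparison, lists and members were chosen with earlier results of these data known. Alternatives were other profiles, centring, weights, filters on fragments, zero scores, variance models, thresholds and windows.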

Additional observations from a re-analysis of the deposited data

How the results depend on the processing

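Calls of limma, above and below 0, depended on the profiles and the fit. For protein-coding genes, against 506 and 150, there were 0 and 0 with the profiles paired as deposited (565 genes at an unadjusted p under 0.05) and 0 and 0 with the seam cell L4 profiles alone. Calls below 0 were 428 with each replicate over its usable controls, 270 after centring on fragments outside genes and 254 with a plain mean. With zero scores as missing, 1188 and 628 of 15827 genes were called. Of the 506 genes, 487 were still called there, and 504 after centring. With the replicate number as a block, pairing L2 and L4, 0 genes were called either way, and for noncoding genes 2 above and 0 below, against 108 and 31. Leaving out 1 replicate gave 2 to 3 above and 0 below for protein-coding genes, the lone profile being assumed to vary like the other groups, and 36 to 112 above and 25 to 72 below for noncoding genes. Crossing the replicate numbers in the block, chosen after seeing the data, gave 427 and 51 for protein-coding and 17 and 6 for noncoding genes; this pairs the seam cell controls in place of the *dam:rpb-6* populations. Noncoding genes extended by 500 bp gave 280 and 150, and as deposited 0 and 0.

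High and low genes, 756 and 135, were 1631 and 682 at a threshold of 0.5, 194 and 10 at 2, and 21 and 1 with the profiles as deposited, of which 1 is the ratio of the controls. With at least 5 fragments, 79 were low. From 1 replicate alone, added after seeing the data, 1030 to 1410 genes were high and 363 to 518 low. Of 224 named genes, those that were called had the same sign under each setting run for protein-coding genes, and the 70 called ones lost their call with the block, with seam cell L4 profiles alone, as deposited and without either replicate. Apart from the deposited pairing, the causes were not tested.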
